A study of Macaca mulatta with 12 samples.

Results

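The 100 genes described here had a higher level in the prefrontal cortex of newborn rhesus macaques than in both fetal and juvenile animals. They were chosen from the measured values, out of 8785 genes with a single symbol. For each gene the newborn mean was set against the fetal and the juvenile mean on the deposited log2 scale, and the genes were ranked by the smaller of these 2 differences. The first 100 were taken, 1.14% of the genes. The smaller difference ran from 1.38 for OSTN down to 0.44 log2 units. The last genes inside, LYN, HEBP1 and TCP11L2, were at 0.45, 0.45 and 0.44, and the first outside, DGKH, SLC3A2 and SF3B6, were each at 0.44. Because the choice used both contrasts and all 12 arrays, the newborn peak is given below as a description, with no test.

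Each array held total RNA from 1 male animal that had died suddenly, taken from the superior frontal gyrus of the prefrontal cortex. The 6 fetal animals were taken 72, 57, 53, 42, 35 and 30 days before birth, the newborn animals at 1 and 24 days of age, and the juvenile animals at 182, 353, 479 and 831 days. The labels name no treatment, genotype or strain for any group, and the series text calls all postnatal animals newborn. The array was a human design (Affymetrix Human Gene 1.0 ST), so sequence differences between the species can dim a gene, and levels are compared within a gene, not between genes.

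The arrays were not fully level with each other. Array medians lay between 3.98 (72 days before birth) and 4.38 (479 days), with 4.10 at 1 day and 4.29 at 24 days. In 49.5% of all genes the highest fetal value was that of the animal at 57 days before birth, and in 52.6% the lowest juvenile value was that of the animal at 831 days. Of the cortical marker lists, 10 of 12 genes of excitatory neurons were measured, and CAMK2A, a kinase of excitatory synapses, was at 5.56 in fetal, 7.47 in newborn and 7.68 in juvenile animals. CAMK2A does not stand for that list. In 5 of its 10 measured genes the newborn mean was above the fetal mean, and the median difference was 0.02. None of 14 leukocyte markers and 1 of 12 red cell markers (ALAS2) was measured, so blood in the tissue could not be followed. In bulk tissue, fewer cells of a type and less RNA per cell cannot be told apart.

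Birth exposes the cortex to a new metabolic, hormonal and sensory setting. In the weeks around it synapses form, neurons become active, microglia settle in the tissue and vessels mature. Immediate early genes are switched on in neurons and other cells soon after a stimulus, without new protein synthesis. Several encode transcription factors, such as the FOS and JUN families, and others encode phosphatases that limit kinase signalling. Neuropeptides are released by neurons alongside fast transmitters, and microglia are the resident macrophages of the brain.

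The medians over the members give the peak's course, and single members departed from it. The median member lay 0.42 log2 units above its own mean over all animals at 1 day and 0.75 above it at 24 days. In fetal animals this median lay between -0.45 (72 days before birth) and -0.04 (57 and 30 days), and in juvenile animals between -0.24 (831 days) and 0.25 (479 days). The same median over all 8785 genes lay between -0.15 and 0.21 in the 12 animals. The array of the 24-day animal was thus the higher of the newborn arrays both for the members and, at 0.11 against -0.03, for all genes.

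**Figure D1:**
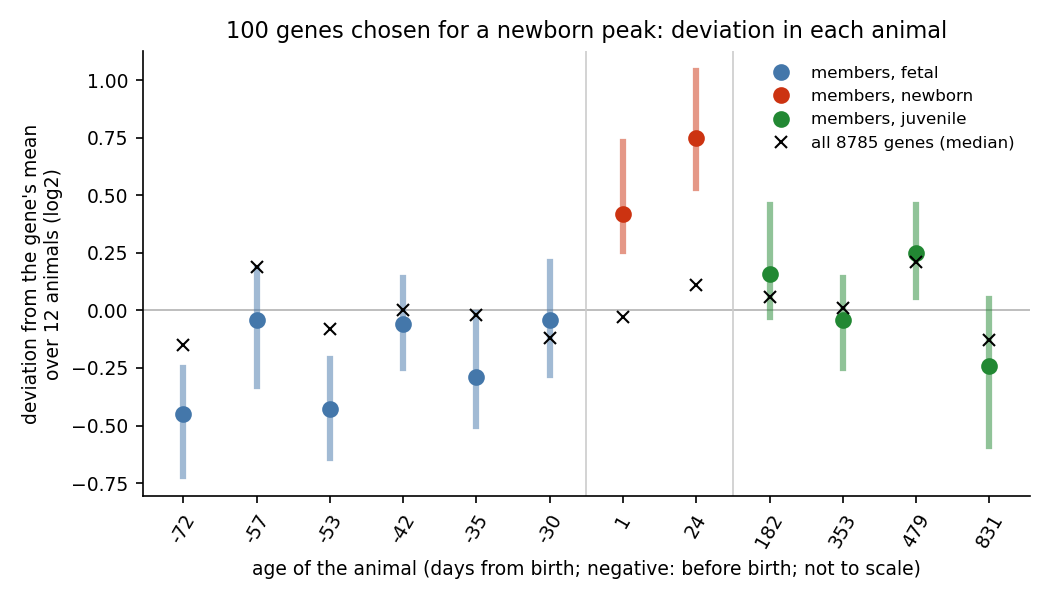
Deviation of the 100 members from their own mean over the 12 animals (y axis, log2), by age of the animal in days from birth (x axis, not to scale). Filled points are medians over the members, bars run from their 25th to their 75th percentile, and crosses are medians over all 8785 genes. The newborn medians are 0.42 and 0.75, and the other animals lie between -0.45 and 0.25.

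A newborn mean above both other means was itself common, at 2485 of 8785 genes (28.3%). Members differed in how far they stood above the fetal side. The newborn minus fetal difference ran from 0.45 to 2.66 with a median of 0.74, while newborn minus juvenile ran from 0.44 to 1.58 with a median of 0.56. In 68 members the juvenile mean was above the fetal mean, so the juvenile side had the smaller gap, against 56.1% of all genes. Fetal and juvenile means lay within 0.25 of each other in 60 members, against 40.6% of all genes. The rule uses these same means, so nothing is read from these shares. In 22 members the juvenile mean was at least 0.5 above the fetal mean, a share near the 19.2% of all genes. GNG4 and PNLDC1 showed the reverse, with juvenile minus fetal differences of -0.55 and -0.63.

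**Figure D2:**
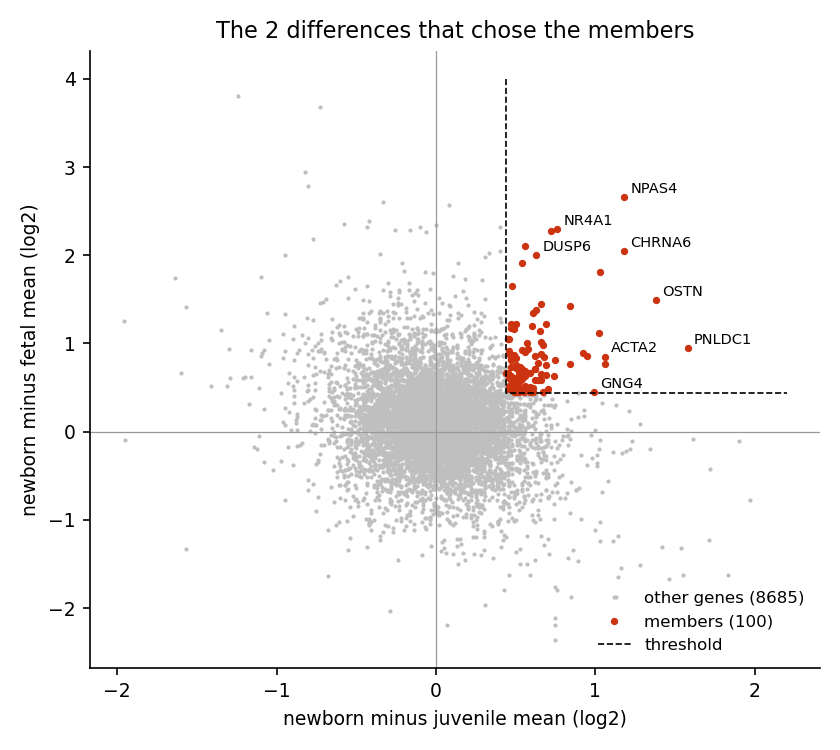
Newborn minus juvenile mean (x axis) against newborn minus fetal mean (y axis), both in log2 units, for all 8785 genes. Red points are the 100 members, grey points the other 8685 genes, and the dashed line is the threshold of 0.44 on both axes. Among the members NPAS4 lies highest, at 2.66 above fetal, and PNLDC1 farthest right, at 1.58 above juvenile. Over all genes the highest values are 3.81 and 1.97.

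In 27 members both newborn values lay above all 10 other values, a pattern that 0.888% of all genes showed. The rule favours such genes, so nothing is read from that count. Both newborn values were above all fetal values in 54 members (13.4% of all genes) and above all juvenile values in 44 (7.9% of all genes). A newborn array held the highest of the 12 values in 92 members, against 17.3% of all genes. These counts too follow from the rule. The exceptions were RSPH4A, ANO2, SERPINA11 and DNAJB7, highest in a fetal animal, and UCN3, COL5A2, UFSP2 and NCALD, highest in a juvenile animal.

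Immediate early genes were the first group among the members. Of 26 measured genes of that list, 7 were members (26.9%), against 1.14% of all genes. They were the transcription factor genes NPAS4, FOSB, FOS, JUNB and NR4A1 and the phosphatase genes DUSP1 and DUSP6, which switch off MAP kinases. This list and all other gene lists used here were drawn up with results of these animals known. The share of members on any list therefore describes its genes and is not independent evidence. All 7 had juvenile means above their fetal means, by 0.58 to 1.57 log2 units, so these members peaked in newborns on top of a higher postnatal level.

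NPAS4 (row 7941599), a transcription factor that neuronal activity induces, had the second-largest smaller difference. Its fetal values ran from 1.54 to 2.58 with a median of 1.85. It was at 5.29 at 1 day and 3.88 at 24 days, and at 3.68, 3.26, 3.77 and 2.91 at 182, 353, 479 and 831 days. The newborn values did not overlap with either group, but the 24-day value was close to that of the 479-day animal. Group means were 1.92 ± 0.36 (SD, n = 6), 4.59 ± 1.00 (n = 2) and 3.41 ± 0.40 (n = 4), so the newborn mean was 6.33-fold the fetal and 2.27-fold the juvenile mean, if the log base is 2.

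FOSB (row 8029693), a partner of JUN proteins, was at 3.42 and 2.94 in the newborn animals. Its fetal values lay between 0.55 and 2.33, and its juvenile values were 2.31, 2.44, 2.35 and 1.49 in order of age. Both newborn values lay above all others, while the fetal and juvenile values overlapped. The row was dim, with 11 of 12 values under the 20th percentile of their array. Where such values were raised to that percentile, the smaller difference of FOSB was 0.28 in place of 1.03.

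FOS (row 7975779) was at 3.59 and 4.15 in the newborn animals, between 1.19 and 2.02 in fetal animals, and at 3.52, 2.96, 3.03 and 3.11 in juvenile animals in order of age. JUNB (row 8026047) was at 4.40 and 4.82, between 2.21 and 3.31, and at 4.01, 3.79, 4.09 and 4.36 in the same order. In both genes the newborn values lay above all others, with the 1-day value close to the highest juvenile value. Unlike NPAS4 and FOSB, these genes were higher at 24 days than at 1 day.

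NR4A1 (row 7955589), a nuclear receptor without a known ligand in the cell, was at 4.31 at 1 day and 4.90 at 24 days. Its juvenile values were 4.53, 3.44, 3.84 and 3.54, so the 182-day animal lay above the 1-day animal. The fetus at 30 days before birth was at 3.14, while the other fetal values lay between 1.96 and 2.42. NR4A1 was the 1 member of this group whose newborn values overlapped with another group.

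DUSP1 (row 8115831) was nearly equal in the newborn animals, at 5.53 and 5.54. Its fetal values lay between 3.34 and 4.41, with a median of 4.22, and its juvenile values were 4.84, 4.29, 5.0 and 4.64. Both newborn values stood above every other animal. DUSP6 (row 7965335), which acts on ERK, was at 7.0 and 6.76, between 4.33 and 5.47 in fetal animals and at 6.22, 5.88, 6.66 and 6.25 in juvenile animals. The 24-day value of DUSP6 was close to that of the 479-day animal.

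Over all 26 measured immediate early genes the median difference was 1.06 against fetal and 0.21 against juvenile. Of the 26, 14 had a newborn mean above both other means, against 28.3% of all genes. The 7 members are among these 14 by the rule, which raises both this count and the medians of the 26, so nothing is read from them. The other 19 were those left after the rule took the 7 members, which lowers their medians, so no lack of a peak is read from them. Their median newborn minus fetal difference was 0.58, against 0.08 for all genes, and their median newborn minus juvenile difference 0.01, against 0.01 for all genes. PTGS2, an enzyme of prostaglandin synthesis, EGR1 and ARC were nearest to the threshold, each 0.40 above the juvenile mean. NR4A2 and FOSL2 were below their juvenile means, at differences of -0.23 and -0.22, and KLF6 was at -0.61 against fetal. TIPARP (row 8083569), an ADP-ribosyltransferase that was not on the list, was a member, at 6.12 and 5.95 against at most 5.61 in fetal and 5.86 in juvenile animals. DUSP1 was also the 1 member of 12 measured genes of the glucocorticoid response. That list had medians of 0.72 against fetal and -0.03 against juvenile. The heat shock, hypoxia, integrated stress, interferon and circadian lists held no member, with 9, 17, 11, 7 and 18 genes measured. With 1.14% of all genes as members, lists this short can easily hold none, and nothing is read from it.

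**Figure D3:**
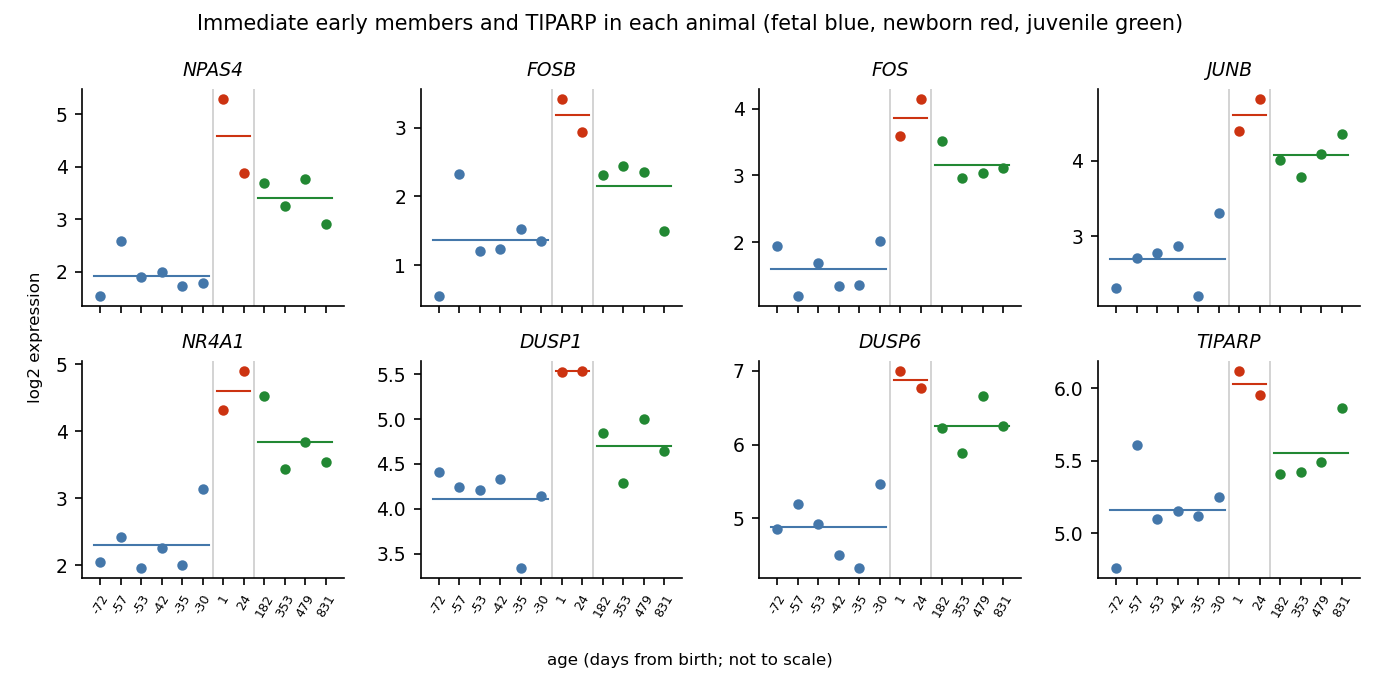
Log2 expression (y axis) of the 7 immediate early members and TIPARP in each of the 12 animals, by age in days from birth (x axis, not to scale). Points are single animals, fetal blue, newborn red and juvenile green, and lines are group means. DUSP1 is at 5.53 and 5.54 in the newborn animals, above every other animal, while the newborn values of NR4A1 overlap with the 182-day value of 4.53.

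Peptides, other secreted signals and their receptors made up 12 members, a grouping made after the values were seen. OSTN (row 8084814), the small secreted peptide osteocrin, led all members. Its newborn values were 4.32 and 3.14, and its fetal values ran from 0.49 to 3.47 with a median of 2.31. Its juvenile values were 3.07, 1.77, 2.74 and 1.83 in order of age. The 24-day value lay within the fetal range, and 7 of the 12 values were under the 20th percentile of their array. With those values raised to it, the smaller difference of OSTN was 0.63 in place of 1.38.

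TAC1 (row 8134420), the precursor of substance P and neurokinin A, was at 4.91 and 4.40. Its fetal values lay between 2.77 and 4.55, and its juvenile values were 4.37, 3.57, 3.99 and 2.89. Both newborn values lay above all juvenile values, but the 24-day value lay within the fetal range. SCG2 (row 8059345), a secretogranin of dense-core vesicles, was at 6.12 and 5.65, between 3.97 and 4.97 in fetal animals, and at 5.74, 5.02, 5.48 and 4.78 in juvenile animals. SCG2 lay above all fetal animals in both newborns and lay within the juvenile range at 24 days.

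PNOC, the precursor of the opioid-like peptide nociceptin, was at 5.18 and 5.67, and its fetal and juvenile means were 4.51 ± 0.29 (SD, n = 6) and 4.96 ± 0.20 (n = 4). CRHBP, a protein that binds corticotropin-releasing hormone, was at 3.58 at 1 day and 4.77 at 24 days, against means of 2.53 ± 0.36 and 3.70 ± 0.29. Its 1-day value was below the juvenile mean. UCN3, a ligand of receptors for that hormone family, was dim, with 11 values under the 20th percentile. The chemokine CXCL14 was at 5.68 and 6.21, above all fetal values, and its juvenile mean was 5.33 ± 0.59. NRG3 (row 7928736), a ligand of the ERBB4 receptor, was at 6.74 and 6.70, above all other animals by a small margin, since the highest of them was at 6.57.

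The receptor genes in this group were TRHR for thyrotropin-releasing hormone, CALCRL for calcitonin-like peptides, MCHR2 for melanin-concentrating hormone and the orphan GPR26. TRHR (row 8147877) was at 3.44 and 3.08, above all other animals, of which the highest was at 2.93. In 10 of 12 animals its value was under the 20th percentile. GPR26 was at 3.56 at 1 day and 5.09 at 24 days, between 3.22 and 4.10 in fetal animals, and at 4.92, 3.95, 4.21 and 1.98 in juvenile animals. MCHR2 was at 2.84 and 4.17, between 2.76 and 3.36, and at 3.38, 3.51, 3.55 and 1.16. Both genes were high at 24 days and not at 1 day, with their lowest value at 831 days. Without the 831-day animal, GPR26 was no longer above the juvenile mean, at a difference of -0.03, and the smaller difference of MCHR2 was 0.02 in place of 0.45.

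Of 16 measured genes on the list of neuropeptides and secreted neuronal factors, TAC1 and SCG2 were members (12.5%, against 1.14% of all genes). The median of the list was 1.14 against fetal and 0.14 against juvenile. PDYN, BDNF and NRN1 stood 2.94, 2.01 and 2.32 above fetal in newborns without a peak, since they were at -0.82, -0.35 and -0.43 against juvenile. The reverse order held for GRP, at -0.11 against fetal and 1.90 above juvenile.

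Transmitter receptors and ion channels made up 6 members. Of 34 measured genes of transmitter receptors and transporters, GABRA5 and GRIK1 were members (5.88%, against 1.14% of all genes). GABRA5 (row 7982102), a GABA receptor subunit, was at 7.62 and 7.57, above all fetal values (at most 7.48) and all juvenile values (7.35, 6.79, 6.88 and 6.82). GRIK1, a kainate receptor subunit, was at 6.04 and 5.81, between 4.94 and 5.99 in fetal animals, the highest at 30 days before birth, and at 5.69, 5.27, 5.50 and 4.84 in juvenile animals. GRIK3, a related subunit, missed the threshold at 0.41 above fetal.

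CHRNA6 (row 8150550), a nicotinic acetylcholine receptor subunit, was not on that list and had a smaller difference of 1.18. It was at 4.04 and 3.57, between 1.01 and 2.59 in fetal animals, and at 3.78, 3.19, 2.80 and 0.74 in juvenile animals. The level thus overlapped with that of the 182-day animal, and the 831-day value was the lowest of all 12. Without the 831-day animal the smaller difference was 0.55, and with dim values raised to the 20th percentile it was 0.57. Other members were ANO2, a calcium-activated chloride channel, MCOLN1, a channel of lysosomes, and PIRT, a regulator of TRP channels.

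Neuronal members with roles at synapses included SYT17, a synaptotagmin, and UNC13C, which primes synaptic vesicles. SYT17 (row 7993624) was at 5.87 and 5.95, above fetal values of 4.88 to 5.46 and juvenile values of 5.27, 5.33, 5.75 and 4.55. UNC13C was at 6.53 and 6.08, with juvenile values of 6.14, 6.01, 5.92 and 4.69, so the 24-day value overlapped with the 182-day value. Without the 831-day animal its smaller difference was 0.28 in place of 0.62. ELFN1, a postsynaptic adhesion protein, and PCDH20, a protocadherin, were also members. NCALD, a neuronal calcium sensor, was at 7.66 and 7.50 but at 8.17 at 831 days and 5.37 at 479 days, and at 7.25 and 7.32 in the other juvenile animals, so the newborn values lay inside the juvenile range. BRINP2, NECAB3 and the small GTPase gene RAB36 completed this group. None of 23 presynaptic, 21 postsynaptic or 25 voltage-gated channel genes measured on their lists was a member. Since 1.14% of all genes were members, nothing is read from their absence on lists this short.

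Microglia and macrophages gave 3 members of 7 measured marker genes (42.9%, against 1.14% of all genes). This list too was drawn up with results of these animals known, so the share is not independent evidence. CX3CR1 (row 8086344), the fractalkine receptor, was at 3.93 at 1 day and 4.82 at 24 days. Its fetal values ran from 2.93 to 4.20 and its juvenile values were 3.95, 3.45, 3.90 and 3.54. The 1-day value lay within both other groups, so the peak of CX3CR1 was that of the 24-day animal. P2RY12 (row 8091530), a purinergic receptor of resting microglia, was at 7.05 and 6.84, against 5.17 to 6.69 in fetal and 6.19, 6.27, 6.62 and 6.84 in juvenile animals. The 24-day value of P2RY12 equalled that of the 831-day animal, and the fetus at 30 days before birth was the highest fetal animal for both genes. LYVE1 (row 7946579), a hyaluronan receptor of perivascular macrophages and lymphatic vessels, was at 4.94 and 4.55, within or just above the range of the other animals (3.58 to 4.64).

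Of the 18 genes on the marker list, 7 were measured. The mean of its 7 genes, centred over the 12 animals, was 0.42 and 0.58 in newborns, between -0.58 and 0.17 in fetal and between 0.02 and 0.36 in juvenile animals. The medians of all 7 genes were 0.86 above fetal and 0.28 above juvenile. The rule chose the members for these same contrasts, which raises the values over all 7 genes. The 4 that were not members, CSF1R, GPR34, TYROBP and CD163, had medians of 0.70 above fetal and 0.00 against juvenile, lowered by the removal of the members. Their centred mean was between 0.29 and 0.51 in newborns and between 0.18 and 0.6 in juvenile animals, so the newborn values lay inside the juvenile range. CSF1R was at 3.93 and 4.80 in the newborn animals against a juvenile mean of 4.08. The share of these cells in the tissue was not measured, and its part in these values was not tested.

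Further members with known roles in immune cells were HPGDS, a prostaglandin D synthase, ENTPD1, an enzyme that breaks down extracellular ATP, the kinase LYN, the scavenger receptor STAB1 and the lymphocyte receptor BTLA. ENTPD1 (row 7929511) was at 4.84 and 5.04, above fetal values of 3.71 to 4.31 and juvenile values of 4.45, 4.34, 4.23 and 4.42. STAB1 was at 2.77 and 3.91, so its peak was that of the 24-day animal. All 12 values of HPGDS and BTLA were dim, below the 20th percentile. BTLA was at 2.27 and 2.51, between 0.45 and 2.37 (median 2.04) in fetal and at 1.93, 1.72, 2.16 and 1.18 in juvenile animals. LYN was at 4.50 and 4.31, between 3.67 and 4.28 (median 4.0) in fetal animals, and at 4.18, 3.89, 4.12 and 3.43 in juvenile animals.

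Vessel members were ACTA2 and ACTG2, actins of smooth muscle, and ABCB1 and MFSD2A, transporters of the blood-brain barrier. ACTA2 (row 7934906) was at 6.09 and 5.99, between 4.86 and 5.88 in fetal animals, and at 4.58, 5.07, 4.91 and 5.35 in juvenile animals. It was 1.81-fold the fetal and 2.09-fold the juvenile mean, and its newborn values lay above all others. ACTG2 was at 3.30 and 2.99, and at most 3.07 in fetal animals (median 2.42), with juvenile values of 1.90, 1.97, 2.44 and 2.03, but these actins are nearly identical and a row may hold signal from both. ACTG2 was dim, with 10 of 12 values under the 20th percentile of their array. With those values raised to it, its smaller difference was 0.22 in place of 0.77. The 4 measured genes of pericytes and smooth muscle included ACTA2 and had medians of 0.54 above fetal and 0.23 above juvenile. The other 3, PDGFRB, RGS5 and ABCC9, had a median of 0.24 above fetal and 0.10 above juvenile.

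ABCB1 (row 8140782), the drug efflux pump P-glycoprotein, was equal in the newborn animals, at 3.86 and 3.87. Its fetal values ran from 2.30 to 3.20, the highest at 30 days before birth, and its juvenile values were 3.38, 3.11, 3.25 and 3.31. Both newborn values lay above all others. MFSD2A, which carries docosahexaenoic acid into the brain, was at 4.37 at 1 day and 5.28 at 24 days, so its 1-day value lay below those of the animals at 182 and 479 days (4.40 and 4.54). All 12 measured endothelial markers had medians of 0.23 against fetal and -0.05 against juvenile, and the 11 other than ABCB1 had 0.19 and -0.09. PECAM1, an adhesion molecule of endothelial cells, was 0.33 and 0.31 above.

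**Figure D4:**
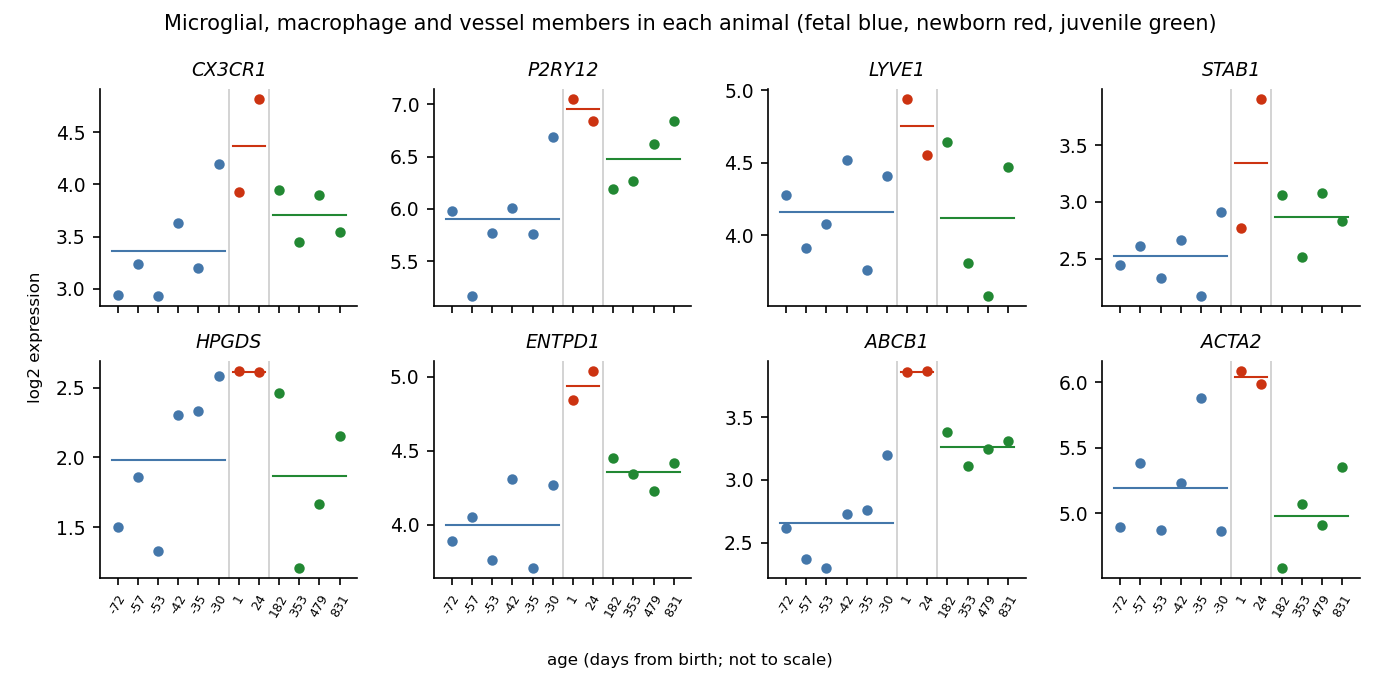
Log2 expression (y axis) of 6 microglial, macrophage or immune members and 2 vessel members in each animal, by age in days from birth (x axis, not to scale). Points are single animals, fetal blue, newborn red and juvenile green, and lines are group means. ABCB1 is at 3.86 and 3.87 in newborns, above all others, whereas CX3CR1 and STAB1 are high at 24 days and not at 1 day.

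Matrix members were BCAN, a proteoglycan of perineuronal nets, the collagens COL5A2 and COL26A1, FBLN5 of elastic fibres, CCDC80, OLFML3 and CRIM1. BCAN was at 4.29 at 1 day, within the range of 3.95 to 4.51 of the fetal animals, and at 5.43 at 24 days, with juvenile values of 4.49, 4.22, 4.50 and 4.36. COL5A2 was at 3.37 and 3.91, between 2.60 and 3.14 in fetal animals, and at 4.23, 2.90, 3.58 and 2.0 in juvenile animals, so it was highest at 182 days. Without the 831-day animal its smaller difference was 0.07 in place of 0.47. OLFML3 was at 3.87 and 4.46, between 2.94 and 3.81, and at 3.50, 3.28, 3.72 and 4.10, so the 831-day value lay above the 1-day value. CRIM1, at 6.26 and 6.28, was the 1 matrix member with both newborn values above all other animals. On the matrix list 2 of 34 measured genes were members (5.88%, against 1.14% of all genes).

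Among metabolic members, DIO2 (row 7980485) makes the active thyroid hormone in the brain. It was at 4.15 and 4.86, above fetal values of 2.86 to 3.85, and its juvenile values were 4.47, 3.35, 3.91 and 3.56. The 182-day animal lay between the newborn values. DIO2 was the 1 member of 8 measured genes of the thyroid hormone list, whose medians were 0.04 against fetal and 0.01 against juvenile. ENPP6, a choline phosphodiesterase of early oligodendrocytes, was at 3.36 and 3.85, between 2.07 and 3.56 in fetal animals, and at 2.41, 2.84, 2.85 and 3.83 in juvenile animals, so both groups overlapped with it. It was the 1 member of 11 measured myelin markers.

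The amino acid transporter gene SLC43A1 was at 3.61 at 1 day and 4.60 at 24 days, between 2.62 and 3.57 in fetal animals, and at 2.14, 3.77, 3.89 and 2.93 in juvenile animals. PPCDC, an enzyme of coenzyme A synthesis, was at 3.12 and 4.01, between 2.08 and 3.59, and at 2.91, 2.99, 3.11 and 1.87. For both genes the 24-day value was above all others and the 1-day value was not. HEBP1, a heme-binding protein, was at 3.09 and 3.96, between 2.05 and 2.77, and at 3.34, 2.73, 3.05 and 3.19. GFUS, which makes GDP-fucose, was at 5.94 and 6.22, above all other animals (at most 5.88). DELE1, a mitochondrial stress sensor, was at 3.98 and 4.70, with a highest other value of 3.96. The remaining metabolic members were GPAA1, GPD1, GXYLT2, MRPL11, SAMM50, ABCC10 and SLC35F6. In 13 of the 14 metabolic members the 24-day value was the higher one, on an array that was brighter over all genes. Over all genes the 1-day value was the higher one in 37.3%, and this group too was formed after the values were seen.

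Signalling members numbered 13, and all 13 were higher at 24 days than at 1 day on the deposited scale. Over all genes the 1-day value was the higher one in 37.3%. The group was formed after the values were seen, so nothing is read from its count. The 1-day minus 24-day differences of PIK3R3 (-0.02) and PRICKLE2 (-0.17) were smaller than the gap between these arrays' medians of 4.10 and 4.29. PIK3R3 (row 7915787), a regulatory subunit of PI3 kinase, was nearly equal, at 6.15 and 6.17. Its fetal values ran from 4.96 to 5.99 and its juvenile values were 5.55, 5.28, 5.44 and 5.36, so the peak stood clear of all others. GNG7 (row 8032509), a G protein gamma subunit, had the widest gap to the fetal side in this group, at 5.36 and 5.73 against 3.15 to 3.81. Its juvenile values were 5.22, 4.45, 5.67 and 4.62, and the 479-day animal overlapped. GNG4, a related subunit, showed the reverse, at 4.90 and 5.20 against a fetal mean of 4.60 ± 0.33 and a juvenile mean of 4.05 ± 0.20. RASAL1, RASSF4, RPS6KB2, PASK, CTNNBIP1, ARHGAP44, RIPOR2, TOM1L1, PPP1R27 and PRICKLE2 were the others.

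Members with roles in transcription, RNA or cell division included FEZF2 (row 8088485), a transcription factor of deep-layer projection neurons. It was at 4.46 and 4.52, above fetal values of 3.67 to 4.20 and juvenile values of 4.16, 4.12, 4.25 and 3.39. Without the 831-day animal its smaller difference was 0.32 in place of 0.52. It was the 1 member of 10 measured excitatory neuron markers. PNLDC1, an exonuclease that trims small RNAs, was at 2.22 at 1 day and 4.25 at 24 days, with fetal values of 1.31 to 3.09 and juvenile values of 1.81, 2.0, 2.58 and 0.22. Its 1-day value lay inside both ranges. GINS1, of the DNA replication complex, was at 4.28 and 3.81, between 2.84 and 4.21, and at 3.68, 3.75, 3.81 and 2.97. MIR21 and MIR382 are rows that the annotation names for microRNA genes, and their values are those of the row, not of a mature microRNA. CDK4, ZBTB49, CECR2, ZC3H12B, AAR2 and UTP14A were also in this group. None of 9 measured cell cycle genes was a member on that list, which did not hold CDK4 or GINS1. The share over all genes was 1.14%, so nothing is read from that.

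The remaining 9 members were RSPH4A of motile cilia, SNN, TMEM71, OTULINL, DNAJB7, UFSP2, SERPINA11, SERPINB13 and TCP11L2. RSPH4A had the fifth-largest smaller difference (1.02), but all 12 of its values were dim in the same sense. It was at 2.85 and 2.74, between 0.74 and 2.87 in fetal animals, and at 2.46, 1.64, 2.13 and 0.91 in juvenile animals. SERPINB13 was at 3.93 at 1 day and 2.60 at 24 days, between 1.89 and 3.44 in fetal animals, and at 3.05, 3.26, 3.15 and 1.75 in juvenile animals. Without the 831-day animal the smaller difference of SERPINB13 was 0.11 in place of 0.46. TCP11L2 was at 4.18 and 4.60, between 2.95 and 4.42, and at 3.59, 4.02, 4.46 and 3.72. In all 3 genes the newborn values overlapped with the fetal ones, and in SERPINB13 and TCP11L2 with the juvenile ones too.

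The 3 genes just outside looked much like those just inside. DGKH was at 5.76 and 5.56, between 4.74 and 5.42 in fetal animals, and at 5.41, 5.18, 5.25 and 5.03 in juvenile animals. SLC3A2 was at 5.89 and 6.97, between 5.71 and 6.23, and at 6.11, 5.91, 6.20 and 5.75. SF3B6 was at 4.03 and 4.74, between 3.40 and 4.13, and at 3.81, 3.84, 4.26 and 3.89. DGKH had both newborn values above all others, and the other two did not.

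The newborn animals differed in how far each stood above the other groups. Their difference does not enter the choice of members, but with 1 animal at each age it has no replicate check. The 24-day animal was higher in 67 members and the 1-day animal in 33, while over all genes the 1-day animal was higher in 37.3%. The members' split was thus near that of all genes on the deposited scale. It moved with the scaling, to 41 members higher at 1 day after quantile normalization and 43 after centring on array medians. The share over all genes is not given for these scalings, so the comparison with all genes holds for the deposited scale only. The 1-day value exceeded both the fetal and the juvenile mean in 93 members (21.7% of all genes) and the 24-day value did so in 99 (42.4% of all genes). In 61 members both exceeded the higher of these means by at least 0.25 (1.37% of all genes). The 1-day value fell short of that mark in 34 members (94.7% of all genes) and the 24-day value in 5 (80.6% of all genes). The counts of newborn values set against these means follow from the rule, so nothing is read from them. The peak of PNLDC1, GPR26 and MCHR2 was that of the 24-day animal, with 1-day minus 24-day differences of -2.04, -1.52 and -1.33. NPAS4, SERPINB13 and OSTN were highest at 1 day, by 1.41, 1.32 and 1.18.

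**Figure D5:**
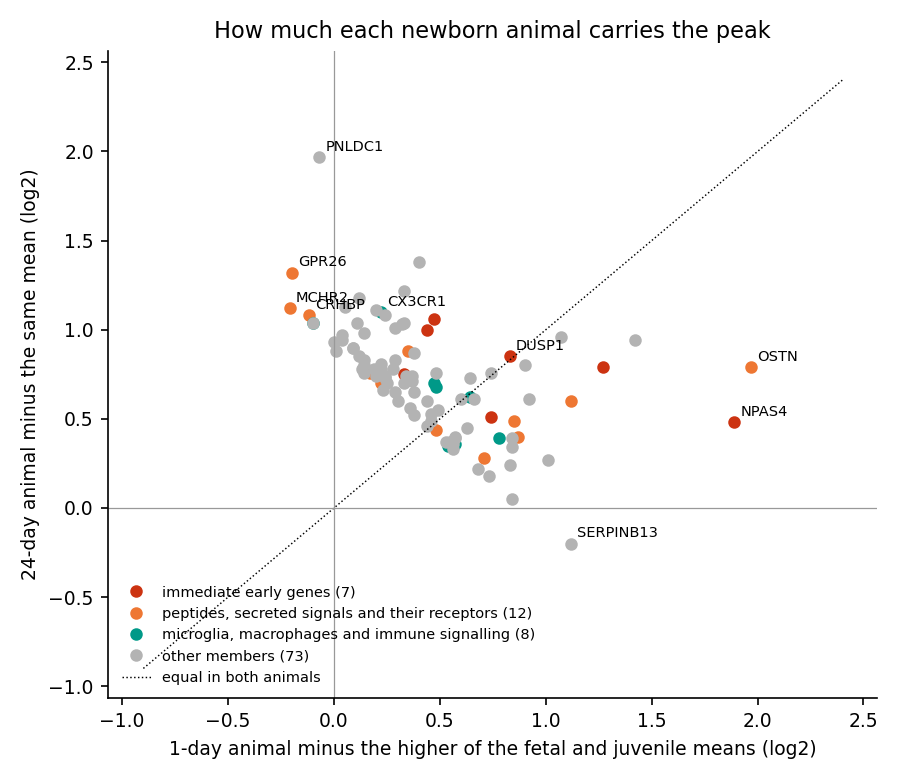
The 1-day value (x axis) and the 24-day value (y axis) of each member, both minus the higher of its fetal and juvenile means, in log2 units. Colours mark 3 groups of members, and the dotted line marks equal values in both animals. NPAS4 and OSTN lie far right, PNLDC1 lies at the top left, and DUSP1 lies near the line. The rule requires a high mean of both values, which gives the points their lower left edge.

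The order of animals within the fetal and within the juvenile group does not enter the choice either. A slope per 10 days towards birth was fitted in limma over all 9630 rows. No row passed at an adjusted p under 0.05 in either direction (0.0% called), and the smallest adjusted p among members was 0.813. At an unadjusted p under 0.05, 12 members had a positive slope, against 2.98% of rows, and no member a negative one, against 2.51%. Of the 100 members, 80 had a positive slope, against 49.1% of all genes, and their median slope was 0.08 log2 units per 10 days.

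The smallest p values were those of BTLA (0.35 ± 0.10 per 10 days, SE, limma adjusted p = 0.813) and RSPH4A (0.40 ± 0.13, adjusted p = 0.839), both dim. SCG2 (0.22 ± 0.08) and CX3CR1 were among the 12. In the negative direction GINS1 and OLFML3 came first, with slopes of -0.21 ± 0.11 and -0.16 ± 0.08 (limma adjusted p = 0.911 for both). The count of positive slopes depended on the end animals. It was 60 of 100 without the animal at 72 days before birth, where 30.6% of all genes were positive, and 69 without the animal at 30 days before birth, where 60.6% were. The 12 members at an unadjusted p under 0.05 became 7 in each of these settings.

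The animal at 30 days before birth was the highest fetal animal in 35 members, against 12.6% of all genes. The animal at 57 days, which had the highest array median, was the highest in 31 members, against 49.5%. The immediate early members showed no common slope before birth, with 3 of 7 positive. All 12 members of the peptide group, all 8 of the synaptic and neuronal group and all 8 of the immune group had positive slopes. Among all 100 members 80 were positive, against 49.1% of all genes. These groups were formed after the values were seen and share the same fetal animals, so nothing about the groups is read from these counts.

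Within the juvenile group a slope per doubling of age was fitted in the same model. Again no row passed in either direction (limma, 0.0% called), and the smallest adjusted p was 0.322. At an unadjusted p under 0.05, 10 members had a negative slope, against 4.01% of rows, and 1 a positive slope, against 1.69%. Slopes were negative in 76 members, and positive in 24, against 34.7% of all genes. After quantile normalization or centring, 35 members were positive, against 48.9% and 50.3% of all genes. CHRNA6 (-1.34 ± 0.28 per doubling, SE) and COL5A2 (-0.91 ± 0.20) had the smallest p values, both with a limma adjusted p of 0.322. ENPP6 (0.61 ± 0.25, adjusted p = 0.833) and OLFML3 (0.29 ± 0.17, limma adjusted p = 0.884) had the smallest p values in the positive direction.

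These slopes leaned on the 831-day animal. It was the lowest juvenile animal in 55 members, against 52.6% of all genes. Without it, 50 members had a positive slope, against 62.0% of all genes, and 6 members were left at an unadjusted p under 0.05 in place of 11. The newborn peak of further members also leaned on it. Without it the smaller difference was 0.20 in place of 0.50 for ARHGAP44, 0.19 in place of 0.47 for PASK, 0.14 in place of 0.45 for NECAB3 and 0.25 in place of 0.47 for PCDH20. It lay between 0.30 and 0.43 for other members, among them RASAL1, CCDC80, TMEM71, CECR2, RASSF4, PPP1R27 and GINS1. Not all members in that range are named here, and AAR2, LYN and ELFN1 also lay in it. The 182-day animal, the one nearest in age to the newborns, was the highest juvenile animal in 37 members, against 23.3% of all genes.

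The median member was dimmer than the median gene. The median of the mean levels over the 12 arrays was 3.65, against 4.16 for all genes. In 30 members the mean was under the average 20th percentile of the arrays, against 18.5% of all genes. All 12 values lay under it in 8 members, near the 6.4% of all genes, namely RSPH4A, MIR382, HPGDS, BTLA, TMEM71, CECR2, PPP1R27 and DNAJB7. Of the 100 members, 50 had no value under it, against 66.3% of all genes, among them DUSP1, DUSP6, ACTA2, PIK3R3, GABRA5, CX3CR1 and P2RY12.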

How the data were processed

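The authors deposited 1 table of log2 expression values, with 9630 rows and 12 arrays. No source used here names the log base. It was taken as 2, since values span -0.86 to 10.6. How arrays were background-corrected, summarised and normalized is not given in these sources, nor is a batch. Per the submitters' processing notes the genome build was hg 18. Per the labels' protocols, Trizol RNA was labelled as biotinylated cRNA. Gene symbols came from GEO's platform annotation: 8848 rows had 1 symbol, 229 several and 553 none. The 52 genes on several rows were taken from their brightest row by mean, and every member had 1 row. The number of arrays limits the precision.

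Group means were taken on the deposited values. Slopes were fitted with limma 3.58.1 in R 4.3.3 over all rows (a mean for each of the 3 groups, a fetal slope and a juvenile slope, 7 residual degrees of freedom), two-sided, with Benjamini-Hochberg adjustment over all rows and a threshold of 0.05. The script was tested on simulated data. Medians and counts used pandas 2.3.3 in Python 3.11.15. Alternatives included array scaling (quantile or median centring), raising dim values to each array's 20th percentile, removal of the dimmest 25 percent of rows, other variance models, and each animal left out. Replicate numbers follow accession order.

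The members and lists were chosen with earlier results of these data known. By the rule for named genes, values in every animal were to be given for the 12 members with the largest smaller difference, up to 3 members of each list, the slopes of smallest p, the largest differences between newborns, and genes next to the threshold. Others were chosen after their values were seen, as was the grouping by role. No sequences were used here.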

Additional observations from a re-analysis of the deposited data

Results flagged for a closer look

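In each of 200 groups (100 members, fetal and juvenile), the highest and lowest animal was set against Dixon's 95% critical value. 18 values stood apart, and chance gives about 1 in 20 groups. Of the fetal values, the animal at 35 days before birth was low for DUSP1 (3.34, the others 4.14 to 4.41). The animal at 30 days was low for SNN (4.0, the others 4.50 to 4.74) and ZBTB49 (1.96). The animal at 72 days was low for BTLA (0.45, the others 1.75 to 2.37) and CTNNBIP1 (2.26). The animal at 57 days was high for MIR21 (5.18) and the animal at 42 days for SERPINB13 (3.44).

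Of the juvenile values, 9 were those of the 831-day animal. It was low for FOSB (1.49, the others 2.31 to 2.44), PPCDC (1.87), UNC13C (4.69, the others 5.92 to 6.14), FEZF2 (3.39), SERPINB13 (1.75), MCHR2 (1.16, the others 3.38 to 3.55) and GINS1 (2.97). It was high for ANO2 (3.29, the others 2.08 to 2.23) and TIPARP (5.86). The 479-day animal was high for SNN (4.81) and the 182-day animal for GABRA5 (7.35, the others 6.79 to 6.88).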

How the results depend on the processing

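Ranking the genes again in 19 settings kept between 36 and 95 of the 100 members, or 100 where a gene's rows were averaged. The 24-day animal alone as newborn, which is the same as leaving out the 1-day animal, kept 46, and the 1-day animal alone kept 36. Without the dimmest 25 percent of rows 61 members were measured and all 61 were kept. Leaving out a fetal animal kept 89 to 95, a juvenile animal 71 to 81, and the scalings and the floor 72 to 85. Without the animals at 72 days before birth and 831 days, a setting chosen after seeing the data, 69 were kept. DUSP1, ACTA2 and PIK3R3 were members in all 19 settings, and 11 members were kept in fewer than 10. The count of 27 members with both newborn values above all others lay between 18 and 34, but was 76 and 43 with the 24-day or 1-day animal alone. Leaving out 1 animal in turn gave 27 to 76. The 33 members higher at 1 day kept their count within 1.5 times under both scalings and the floor.

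No member passed the slope tests in any setting, and after quantile normalization 1 row that was no member passed the juvenile one. With the floor, the smaller difference shrank by more than 1.5 times in 27 members, in 9 of them to 0.01 or less. Among these 9 were RSPH4A (0.01) and ANO2 (-0.06). The floor sets all dim values of an array to the same level. Whether the peaks lost in this way rested on signal near the background was not tested. No paired analysis was possible because the replicate numbers follow accession order and the animals differ. Depth is not defined for arrays. Signal near the background limits the dim members.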
